A study of Mus musculus with 6 samples.

Results

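The 4 receptors of the EGFR family (Egfr, Erbb2, Erbb3 and Erbb4) and 4 genes of receptor inhibitors and their paralogues (Lrig1, Lrig2, Lrig3 and Errfi1) were followed in mouse gliomas that relapsed after their driving mutant EGFR was lost. The 8 genes were chosen by name, with earlier results of these data known. Each was read by 1 probe set with a single gene symbol, so that all 8 were measured among 19938 genes. The relapsed group held 3 tumours, numbered 1, 2 and 3, and the control group held 3, numbered 1, 2 and 4, with 1 Affymetrix array per tumour. All 6 tumours grew from mutant EGFR-driven glioma cells placed under the skin of the flanks of Nu/Nu mice, which lack a thymus and most T cells, and were taken at a volume of 2 cm3. Some mice drank doxycycline at 2 g/L, and the labels do not say which group drank the drug, whether the cells came from several lines or 1, or which form and species of EGFR the cells carried. The array reads mouse transcripts of the tumour cells and of the host tissue around them together.

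Receptors of this family are tyrosine kinases that pair with each other at the cell surface and signal through the RAS-ERK and PI3K-AKT cascades. EGFR binds EGF, TGF-alpha and related ligands, ERBB2 has no known ligand of its own and acts as a partner, ERBB3 binds neuregulins but has a weak kinase, and ERBB4 binds neuregulins and signals by itself. LRIG1 binds these receptors and promotes their ubiquitination and breakdown, LRIG2 and LRIG3 are its paralogues, and ERRFI1 (also called MIG6) binds the kinase domain and is itself transcribed in response to ERK signalling. EGFR is often amplified or mutated in human glioblastoma.

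The family did not move as a block. Lrig1 fell in relapsed tumours by 0.85 ± 0.16 on the log2 scale (SE from limma, 3 arrays per group), or 1.81-fold, while its paralogues Lrig2 and Lrig3 had higher means there by 0.38 ± 0.16 and 0.55 ± 0.16, neither of which passed the test. Among the receptors, Erbb2 was 0.66 ± 0.15 lower, just short of the threshold, Erbb3 was higher in some relapsed tumours only, and the relapsed and control values of Egfr and Erbb4 overlapped. Errfi1 differed by -0.06 ± 0.20. With limma and Benjamini-Hochberg adjustment over all genes, 1 of 8 genes was called at an adjusted p under 0.05, lower in relapsed tumours, and none was called higher, against 9.16% of all genes called (5.47% lower and 3.69% higher). At an unadjusted p under 0.05 there were 3 of the 8, namely Lrig1, Erbb2 and Lrig3, against 26.6% of all genes. Both shares are near those of all genes, so the counts say nothing particular about the family. Over all genes 735 were called higher and 1091 lower. With each array centred on its median the counts were 696 and 1687, and with all probe sets tested they were 871 and 860. The median absolute difference of the 8 genes was 0.47, against 0.16 over all genes. Their median SE was also larger, at 0.18 against 0.11. All but Erbb3 and Erbb4 lay in the brighter 50% of genes, and no median over genes of like level was taken. In bulk tumours such as these, fewer cells of a type and less RNA per cell cannot be told apart.

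**Figure D1:**
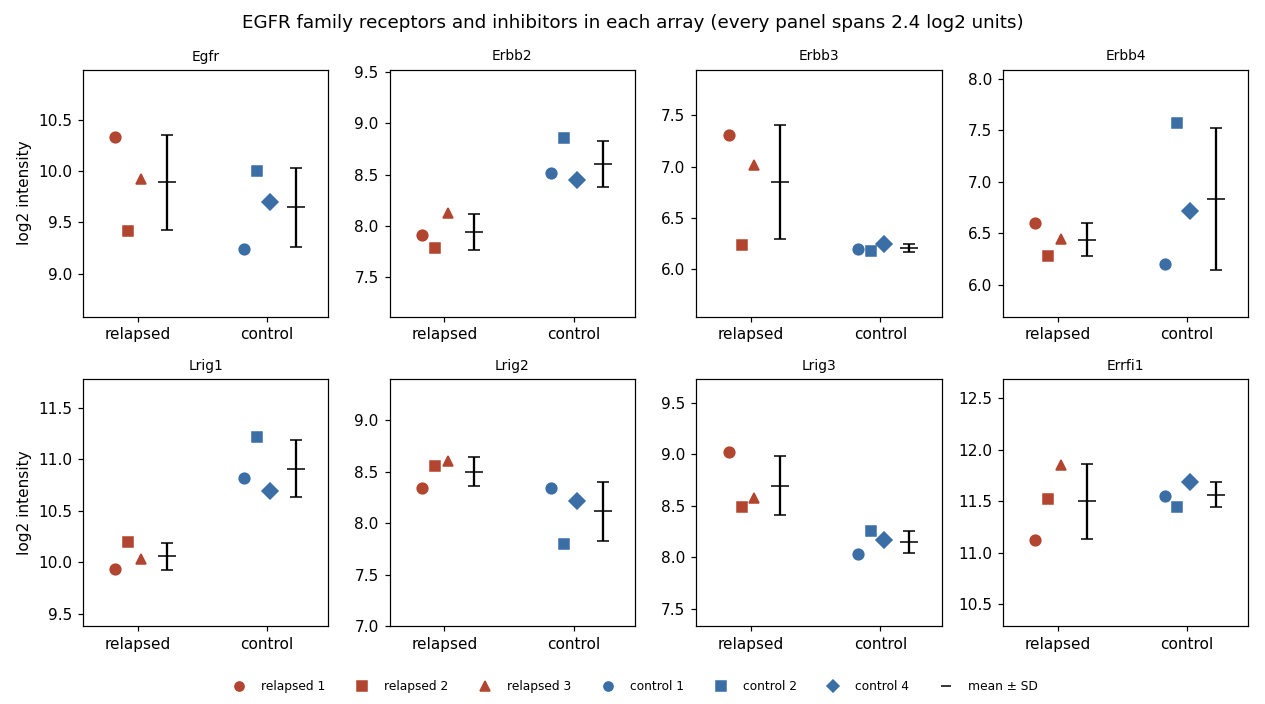
Log2 intensity of the 8 genes in each array (1 panel per gene, every panel 2.4 log2 units high so that spreads can be compared, levels not comparable between panels), with the mean and SD of the 3 relapsed tumours left of those of the 3 control tumours. The groups are apart for Erbb2 and Lrig1, which are lower in relapsed tumours, and for Lrig3, which is higher, and overlap or touch for the others.

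Of the 8 genes, 3 had groups that did not overlap, 2 lower and 1 higher in relapsed tumours, against 30.8% of all genes (17.8% lower and 13.0% higher). The share is near that of all genes, so the count says nothing particular about the family. The 3 were Lrig1, Erbb2 and Lrig3, of which only Lrig1 was called in limma. The 250 bases before their annotated starts are shown as a description. The sequences are those of RefSeq on build GRCm38.p6, where 7 of the 8 genes were matched, and are written 5′ to 3′ on the strand of the gene. Capitals mark matches to 6 motifs searched on both strands: a GC box (GGGCGG), an ETS core (CGGAAG), a FoxO motif (GTAAACA), an E-box (CACGTG), an AP-1 motif (TGANTCA, where N is any base) and the box named by its letters, CCAAT. No motif overlapped another in these 3 windows.
Lrig1, chr6:94700146-94700395, minus strand: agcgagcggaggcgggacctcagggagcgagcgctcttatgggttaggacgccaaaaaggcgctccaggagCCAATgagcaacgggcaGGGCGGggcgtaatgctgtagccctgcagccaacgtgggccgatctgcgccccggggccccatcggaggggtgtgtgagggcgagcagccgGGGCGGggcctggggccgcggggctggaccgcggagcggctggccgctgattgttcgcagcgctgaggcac
Lrig3, chr10:125965969-125966218, plus strand: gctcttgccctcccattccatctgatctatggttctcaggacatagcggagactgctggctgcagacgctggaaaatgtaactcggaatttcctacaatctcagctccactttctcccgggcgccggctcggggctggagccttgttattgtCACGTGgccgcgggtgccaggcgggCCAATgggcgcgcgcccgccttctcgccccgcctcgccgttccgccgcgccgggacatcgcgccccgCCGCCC
Erbb2, chr11:98412234-98412483, plus strand: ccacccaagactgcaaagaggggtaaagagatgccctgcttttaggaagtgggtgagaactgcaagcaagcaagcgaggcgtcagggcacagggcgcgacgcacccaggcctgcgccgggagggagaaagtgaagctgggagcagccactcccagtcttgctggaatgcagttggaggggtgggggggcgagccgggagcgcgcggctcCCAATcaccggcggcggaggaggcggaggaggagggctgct
Lrig1 held 2 GC boxes and 1 CCAAT box, Lrig3 held 1 GC box, 1 CCAAT box and 1 E-box, and Erbb2 held 1 CCAAT box and none of the other motifs. Over 32851 promoter windows of the same length, a GC box was found in 32.7%, a CCAAT box in 33.8%, an E-box in 6.02%, an ETS core in 13.6%, an AP-1 motif in 6.75% and a FoxO motif in 3.17%. The windows were rich in G and C, at 71.6% for Lrig1, 66% for Lrig3 and 66% for Erbb2, against a median of 52.4%. A match of letters is a description of the window and not evidence of binding.

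Among the receptors, Erbb2, the partner receptor without a ligand of its own, came closest to the threshold. Its log2 intensity was 7.91, 7.79 and 8.13 in relapsed 1, 2 and 3, against 8.51, 8.85 and 8.44 in control 1, 2 and 4. Every relapsed tumour lay below every control, with a gap of 0.31 between the groups, which is close to the range within each group (0.35 in relapsed and 0.41 in control tumours). The means were 7.94 ± 0.17 in relapsed and 8.60 ± 0.22 in control tumours (SD, n = 3 each). The difference was -0.66 (95% interval -1.02 to -0.30, limma adjusted p = 0.0511). It passed with the dimmer 50% of genes left out, with quantile normalization and with median centring (adjusted p of 0.0304, 0.0423 and 0.0367), and not in the other 11 alternatives, where the adjusted p reached 0.425. A further probe set is annotated to Erbb2 together with a second gene, Sympk, and was not used.

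Egfr, the wild-type counterpart of the driver in the mouse genome, had log2 intensities of 10.33, 9.41 and 9.92 in relapsed 1, 2 and 3, against 9.24, 10.00 and 9.70 in control 1, 2 and 4. Relapsed 1 was the highest and control 1 the lowest of the 6 arrays, and the other 4 were interleaved. The difference was 0.24 (95% interval -0.50 to 0.98, limma adjusted p = 0.658), so a change of up to about 1 log2 unit upward or 0.5 downward could not be told from none with these arrays. The labels do not give the sequence of the mutant receptor, so whether this probe set also read it was not tested. The array therefore gives no direct check of its loss.

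Erbb3, the neuregulin receptor with a weak kinase, split the relapsed tumours. Its log2 intensity was 7.30, 6.23 and 7.02 in relapsed 1, 2 and 3, against 6.20, 6.18 and 6.25 in control 1, 2 and 4. The controls agreed within 0.07, and relapsed 2 lay among them, while relapsed 1 and relapsed 3 stood at least 0.77 above the highest control. The group means were 6.85 ± 0.55 in relapsed and 6.21 ± 0.04 in control tumours (SD, n = 3 each), and the difference of 0.64 ± 0.28 did not pass, with an adjusted p of 0.216 in limma. Without relapsed 2 it was 0.95, with an adjusted p of 0.0429. The highest control value lay 0.59 above 5.66, the middle value of the probe sets without a listed gene, so the control level may hold little signal of the transcript. Relapsed 1 and relapsed 3 were also the arrays with the most adipocyte and keratinocyte marker signal (scores below), and the part of these tissues in the Erbb3 values was not tested.

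Erbb4, a neuregulin receptor that is also transcribed in muscle and neurons, varied mainly among the controls. Its log2 intensity was 6.60, 6.27 and 6.44 in relapsed 1, 2 and 3, against 6.20, 7.57 and 6.72 in control 1, 2 and 4. Control 2 stood 0.86 above every other array, and the relapsed tumours lay within the control range. The difference of -0.39 ± 0.35 had an adjusted p of 0.541 in limma, and without control 2 it was -0.02. Control 2 also had the highest skeletal muscle marker score, given below, and the part of muscle in its Erbb4 value was not tested.

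Lrig1 was the only gene of the 8 to pass. Its log2 intensity was 9.93, 10.20 and 10.03 in relapsed 1, 2 and 3, against 10.82, 11.22 and 10.69 in control 1, 2 and 4. The relapsed tumours lay within 0.27 of each other, and the gap of 0.49 to the lowest control was larger than that spread and slightly smaller than the 0.53 among the controls. Means were 10.06 ± 0.13 in relapsed and 10.91 ± 0.28 in control tumours (SD, n = 3 each), and the difference was -0.85 (95% interval -1.25 to -0.46, limma adjusted p = 0.0352). The direction held with any 1 array left out, with differences of -0.97 to -0.70, but the call did not, with adjusted p of 0.0505 to 0.113 in those fits on fewer arrays. The call held under 7 of the 14 alternatives. These 7 include the mean and the median of probe sets, which could not change the values of Lrig1, as it has 1 probe set.

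Lrig3, the paralogue of Lrig1, lay the other way. Its log2 intensity was 9.03, 8.49 and 8.57 in relapsed 1, 2 and 3, against 8.03, 8.25 and 8.16 in control 1, 2 and 4. Every relapsed tumour was above every control, with a gap of 0.24, and relapsed 1 was the highest by 0.45. The difference was 0.55, with limma adjusted p = 0.0970 and a 95% interval, not adjusted for the number of genes, of 0.15 to 0.94. It passed in none of the 14 alternatives, where the adjusted p ran from 0.0596 to 0.571.

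Lrig2, the other paralogue, had log2 intensities of 8.34, 8.56 and 8.60 in relapsed 1, 2 and 3, against 8.34, 7.79 and 8.22 in control 1, 2 and 4. Relapsed 1 and control 1 had exactly the same deposited value, so the groups touched without crossing. Such ties are common in this table, where 34.3% of probe sets have an identical value in at least 2 arrays. The difference was 0.38 (95% interval -0.02 to 0.79, limma adjusted p = 0.212).

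Errfi1, the inhibitor that ERK signalling induces, had log2 intensities of 11.12, 11.52 and 11.85 in relapsed 1, 2 and 3, against 11.55, 11.44 and 11.69 in control 1, 2 and 4. The controls lay within the relapsed range, whose ends were relapsed 1 and relapsed 3. The difference was -0.06 (95% interval -0.55 to 0.42, limma adjusted p = 0.869) and turned to 0.13 without relapsed 1.

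**Figure D2:**
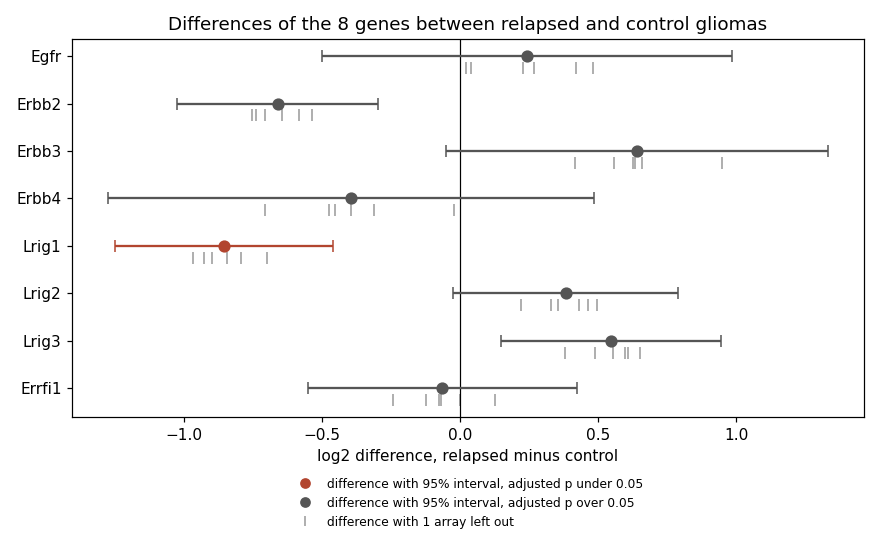
Log2 difference between relapsed and control tumours for each of the 8 genes (points) with its 95% interval from limma (bars, not adjusted for the number of genes), and the differences with each array left out in turn (grey ticks below). The interval of Lrig1, at -1.25 to -0.46, lies furthest below 0, that of Erbb2 also excludes 0 on the low side and that of Lrig3 on the high side, and the ticks of Errfi1 fall on both sides of 0.

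Whether the genes changed unequally was asked within each array, since a ratio between 2 probe sets on the same array is free of any shift of that array as a whole. The level of Lrig1 minus that of Lrig3 was 0.91, 1.71 and 1.46 log2 units in relapsed 1, 2 and 3, against 2.79, 2.97 and 2.53 in control 1, 2 and 4. The groups lay far apart, and the ratio was lower in relapsed tumours by 1.40 ± 0.27 (SE without moderation). The ratio of Lrig1 to Lrig2 was lower by 1.24 ± 0.32, that of Lrig1 to Egfr by 1.10 ± 0.38 and that of Lrig1 to Errfi1 by 0.79 ± 0.30, with no overlap between the groups for any of the 3. The ratio of Lrig2 to Lrig3 differed by only -0.16 ± 0.33 and its groups overlapped. These ratios restate the differences of the single genes array by array, since the pairs were set with those differences known.

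The level of Erbb2 minus that of Egfr was -2.42, -1.63 and -1.79 log2 units in relapsed 1, 2 and 3, against -0.73, -1.15 and -1.25 in control 1, 2 and 4. The groups did not overlap, with a difference of -0.90 ± 0.29. The ratios of Erbb2 to Erbb3 and Erbb4 rest on dim probe sets, with Erbb3 near the background in all controls and in relapsed 2. Their sizes are therefore not described here. They appear in the plot of ratios, in the permutation tests and among the fits with 1 array left out. For the 6 of 8 ratios without overlap the exact two-sided permutation test gave p = 0.1, the smallest that 3 against 3 arrays allow, or 0.133 adjusted over the 8 ratios, so none could pass, and for Erbb2 to Erbb4 and Lrig2 to Lrig3 it gave p = 0.5 and p = 0.6.

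**Figure D3:**
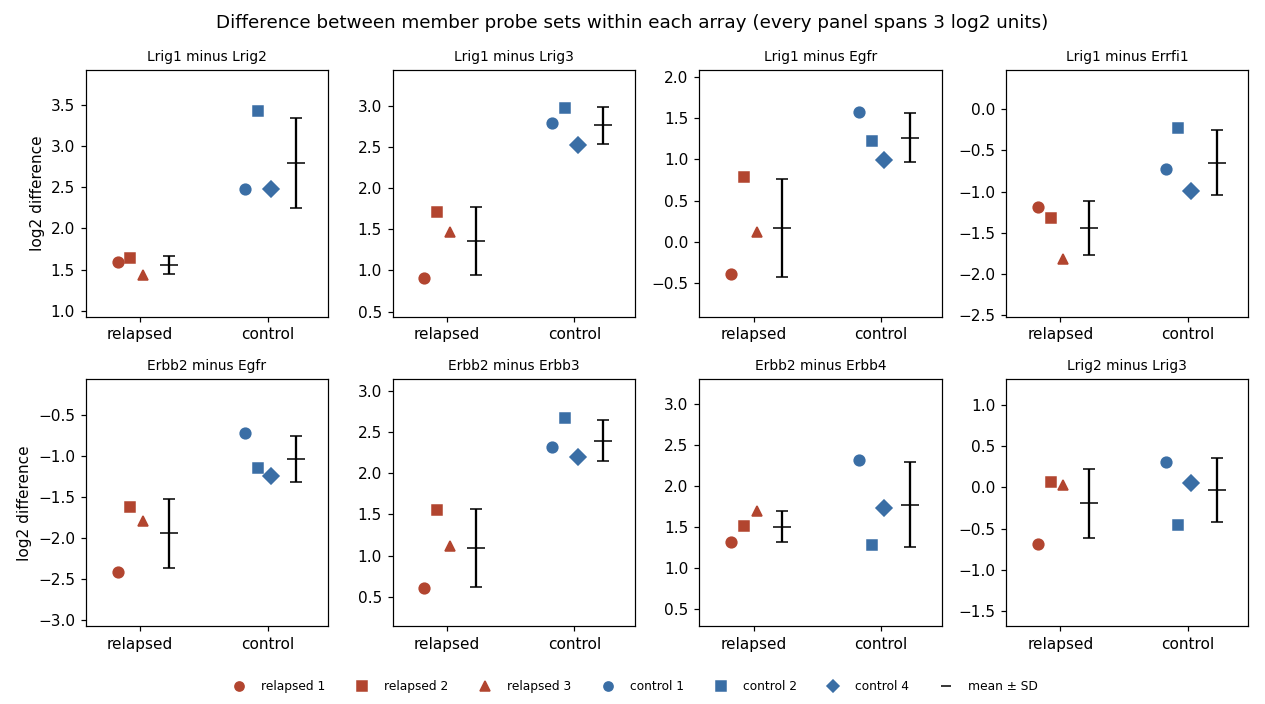
Difference between the log2 intensities of 2 probe sets within each array for 8 pairs of genes, every panel 3 log2 units high, with the mean and SD of the 3 relapsed tumours left of those of the 3 control tumours. The 4 ratios of Lrig1 and those of Erbb2 to Egfr and Erbb3 are lower in all 3 relapsed tumours than in any control, the remaining 2 overlap, and those with Erbb3 or Erbb4 rest on dim probe sets.

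Genes that act with the receptors were read from 6 lists. Of 80 listed genes, 72 had a probe set of their own, and the rest are not analysed here. In limma 2 rose and 6 fell in relapsed tumours, or 11.1% called against 9.16% of all genes. The numbers risen and fallen were 2 and 2 with all probe sets tested and 2 and 3 with a trended, robust variance model, and no gene was called without relapsed 2, relapsed 3 or control 4 (18, 17 and 16 at an unadjusted p under 0.05). The calls were spread thinly over the lists, as the plot of pathway differences shows.

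Among 10 ligands of the family no gene was called in limma, and 1 had an unadjusted p under 0.05. This was Nrg2, a neuregulin, at 6.82 ± 0.07 in relapsed and 7.05 ± 0.07 in control tumours (SD, n = 3 each) with an adjusted p of 0.108. Hbegf, the heparin-binding ligand of EGFR and ERBB4, was 9.68, 10.77 and 10.64 in relapsed 1, 2 and 3, against 10.94, 11.00 and 11.04 in control 1, 2 and 4. Its relapsed levels were all below the controls, mostly through relapsed 1, and the difference of -0.63 ± 0.30 had an adjusted p of 0.252 in limma. The groups did not overlap for 3 ligands with higher and 2 with lower relapsed levels, against 13.0% and 17.8% of all genes. The 3 were Btc, Nrg1 and Epgn, with differences of 1.42 ± 0.72, 0.83 ± 0.48 and 0.14 ± 0.09. None was called (limma adjusted p of 0.280, 0.348 and 0.372). Relapsed 3 was the highest array for Btc and relapsed 1 for Nrg1. Epgn ran from 5.35 to 5.70 over all arrays, and the Btc controls from 5.62 to 6.04. These levels lay near 5.66, the middle value of the probe sets without a listed gene, and may hold little signal of the transcripts. The median difference of the ligands was -0.03, against -0.02 over all genes.

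Of 17 genes of receptor trafficking and degradation, 1 rose and 1 fell. Cd2ap, an adaptor that joins CBL and endophilin complexes at endocytosing receptors, rose by 0.71 ± 0.09 (limma adjusted p = 0.0164), to 10.95 ± 0.03 in relapsed tumours, against 10.25 ± 0.15 in control tumours (SD, n = 3 each). Hgs, which sorts ubiquitinated receptors into endosomes on the way to the lysosome, fell by 0.66 ± 0.11, with an adjusted p of 0.0291. The median difference of this list was 0.14. Of 9 phosphatases that act on the receptors or their partners, 1 fell. Ptprj, a receptor-type phosphatase with EGFR among its substrates, fell by 0.51 ± 0.11 (limma adjusted p = 0.0438), and the list's median was -0.03. The call of Ptprj was lost in 10 of the 14 alternatives, among them the mean or median of its probe sets, and those of Cd2ap and Hgs in 4 and 6.

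Of 16 adaptors and proximal effectors, 2 fell and none rose. At an unadjusted p under 0.05 there were 7 (3 higher and 4 lower), against 26.6% of all genes. Shc3, a phosphotyrosine adaptor transcribed mainly in neural tissue, had the largest difference of any gene in the 6 lists. It was 8.02, 8.42 and 8.45 in relapsed 1, 2 and 3, against 10.11, 10.93 and 10.34 in control 1, 2 and 4, a fall of 2.16 ± 0.25 or 4.48-fold (limma adjusted p = 0.0143). Plcg1, the phospholipase recruited to active EGFR, fell by 0.39 ± 0.08 with an adjusted p of 0.0407. The call was lost in 4 of the 14 alternatives for Shc3 and in 9 for Plcg1. The median difference of the list was 0.06. Of 10 measured genes of the RAS-ERK and AKT cascade, 1 rose and none fell, with 4 at an unadjusted p under 0.05, against 26.6% of all genes. Rasa1, a GTPase-activating protein that turns RAS off, was 10.56, 10.48 and 10.79 in relapsed 1, 2 and 3, against 9.66, 9.24 and 9.59 in control 1, 2 and 4. It rose by 1.11 ± 0.14 or 2.16-fold (limma adjusted p = 0.0174, lost in 5 of the 14 alternatives), while the list's median was -0.09.

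Of 10 feedback inhibitors that ERK induces, 2 fell and none rose, and the median difference was -0.58. At an unadjusted p under 0.05 there were 4, all lower, against 26.6% of all genes in both directions. The groups did not overlap for 6, all lower in relapsed tumours, against 17.8% of all genes lower and 13.0% higher. Among these 6 were Spry2, Spry4, Spred2 and Dusp6, none of them called. Spred3, a SPRED family inhibitor of the RAS-ERK cascade, fell by 1.12 ± 0.22 (limma adjusted p = 0.0407). Spry1, a Sprouty inhibitor of receptor signalling, fell by 0.58 ± 0.12 (limma adjusted p = 0.0473). These calls were lost in 7 and 9 of the 14 alternatives. The list's score, the mean of log2 values after each gene was centred on its 6-array mean, was -0.75, -0.15 and 0.07 in relapsed 1, 2 and 3, against 0.26, 0.21 and 0.35 in control 1, 2 and 4. Relapsed 1 was the lowest for this score and also the lowest for Errfi1, and relapsed 3 was the highest relapsed tumour for both. Against the controls the 2 measures differed in relapsed 3. Its Errfi1 level of 11.85 lay above every control, and its score lay below every control. Relapsed 1 was also the array with the most adipocyte signal (score 2.44), whose part in these values was not tested.

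**Figure D4:**
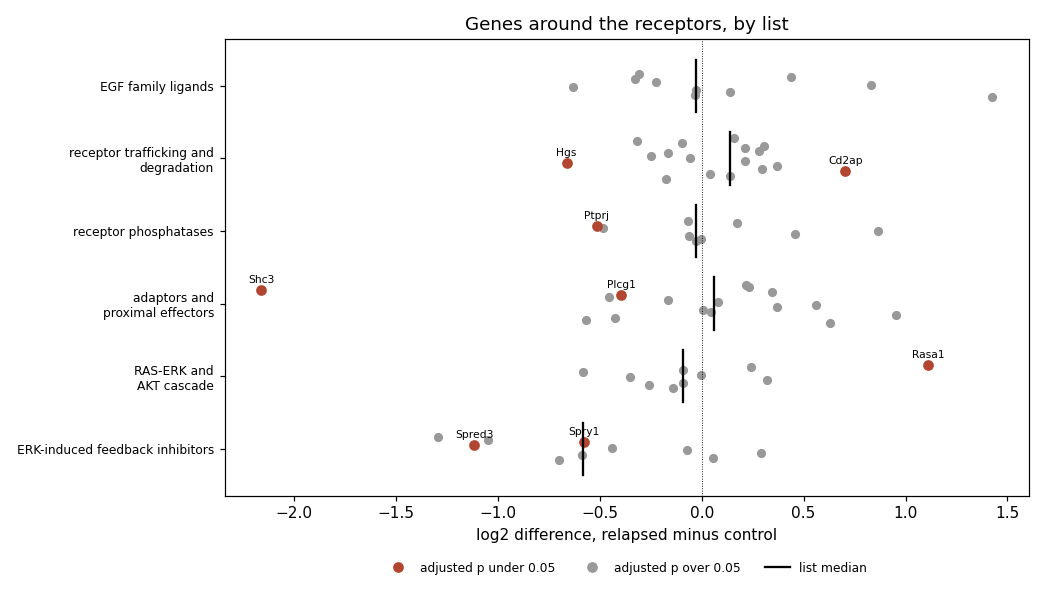
Log2 difference between relapsed and control tumours of 72 genes in 6 lists (points, red and named where the adjusted p in limma was under 0.05) with the median of each list (black bars). Calls fall on both sides of 0 and number at most 2 per list, and the median lies furthest from 0, at -0.58, for ERK-induced feedback inhibitors.

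The genes whose centred values came nearest to those of each member over the 6 arrays were found by the root mean square (RMS) difference. For Lrig1 these were Pde10a, Fiz1 and Mrps7, at RMS differences of 0.073, 0.077 and 0.079 log2 units, against an SD of Lrig1 itself of 0.51 over the 6 arrays. For Erbb2 they were Dnajc16, Mthfd1 and Abca3 (0.037, 0.051 and 0.064), and for Lrig3 they were Hint3, Card9 and Sgpp1 (0.031, 0.039 and 0.045). With 19938 genes and 6 arrays, near matches are to be had for most patterns. For Erbb3 they were Clrn1, Ang5 and Gabre (0.051, 0.057 and 0.0997). For Egfr they were Fign, Pccb and Anxa11 (0.092, 0.115 and 0.120), for Lrig2 they were Nkap, Mgat2 and Slc35a1 (0.033, 0.037 and 0.038), and for Errfi1 they were Slc34a2, Hsf2 and Gm340 (0.039, 0.048 and 0.062). For Erbb4 they were Srl, Mybpc1 and Dapk3 (0.126, 0.128 and 0.132). These were the loosest matches of any member. Srl and Mybpc1 encode proteins of striated muscle, sarcalumenin and a myosin-binding protein. The pattern of Erbb4 is set mainly by control 2, the array with the highest skeletal muscle score, and the part of muscle in it was not tested.

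Markers of other cell types moved with the groups or with single arrays. Macrophage markers had list scores of 0.56 to 1.06 in relapsed and -0.92 to -0.60 in control tumours, with 8 of 10 risen, and fibroblast markers had scores of 0.51 to 1.23 in relapsed and -1.01 to -0.49 in control tumours, with 9 of 10 risen. The score of oligodendrocyte progenitor markers ran the other way, at -0.78 to -0.56 in relapsed and 0.50 to 0.93 in control tumours, with 4 of 8 fallen, among them Olig2, which fell by 3.54 ± 0.43. Their members did not all lie that way: Pdgfra, Cspg4 and Gpr17 differed by 0.64 ± 0.33, 0.09 ± 0.19 and 0.10 ± 0.16, none of them called. These lists separated the same tumours as Lrig1, Erbb2, Lrig3, Shc3 and Rasa1, and their part in those differences was not tested. Endothelial scores were -0.27 to 0.02 in relapsed and 0.01 to 0.27 in control tumours with 1 of 8 fallen, astrocyte scores were -0.04 to 0.41 in relapsed and -0.73 to 0.21 in control tumours with 1 of 8 risen and 1 fallen, and Schwann cell scores were -0.20 to 0.08 in relapsed and -0.08 to 0.28 in control tumours with none of 6 called in limma and 1 at an unadjusted p under 0.05.

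Markers of 3 neighbouring tissues stood out in 1 array each. The skeletal muscle score of 8 markers was 1.92 in control 2, against -0.63, -0.20 and -0.0022 in relapsed tumours and -0.59 and -0.50 in control 1 and 4. The adipocyte score of 7 markers was 2.44 in relapsed 1, against -0.56 and -0.30 in relapsed 2 and 3 and -0.74 to -0.29 in control tumours. The keratinocyte score of 8 markers was 1.26 in relapsed 3, against -0.23 and -0.39 in relapsed 1 and 2 and -0.24 to -0.18 in control tumours. No gene of these 3 lists was called in limma, with 1 at an unadjusted p under 0.05 for skeletal muscle and 0 for the others. Without these arrays in turn, Lrig1 differed by -0.70 without control 2, by -0.79 without relapsed 1 and by -0.84 without relapsed 3, and Erbb2 differed by -0.54, -0.65 and -0.75.

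**Figure D5:**
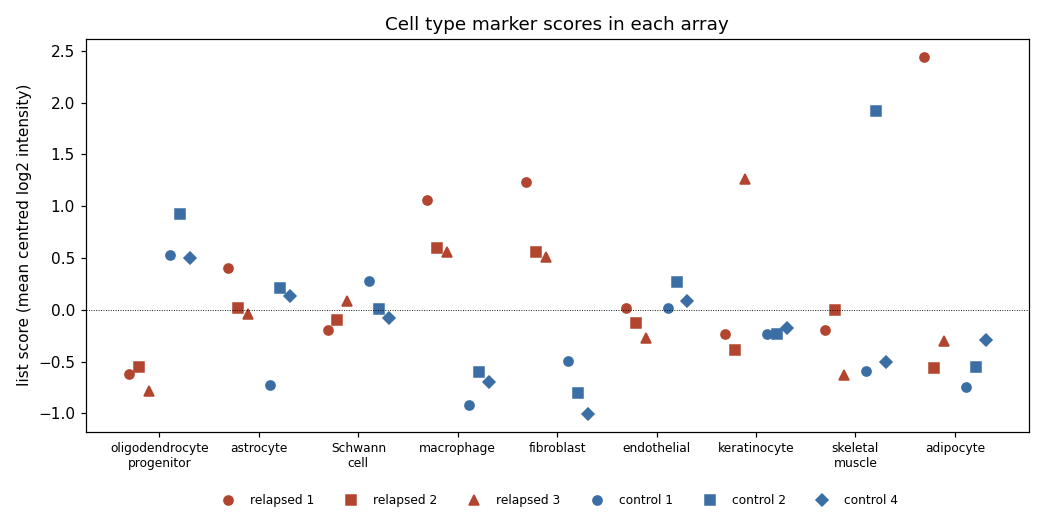
Score of 9 cell type marker lists in each array (mean over the list of log2 intensities centred on each gene's 6-array mean), with the 3 relapsed tumours left of the 3 control tumours in each list. Macrophage and fibroblast scores are higher and oligodendrocyte progenitor scores lower in all 3 relapsed tumours, and single arrays stand out for keratinocyte, skeletal muscle and adipocyte markers.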

How the data were processed

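Total RNA of 6 tumours (5 ug each) was biotin-labelled and hybridised to Affymetrix arrays, per the labels' protocols. The authors deposited log2 intensities of probe sets, 1 value per array, that had been normalized across arrays. The scale was read from the values (1.93 to 14.2). The array medians ran from 6.67 to 6.68 in relapsed and from 6.58 to 6.62 in control tumours, a shift of 0.07. Every relapsed array had a higher median than every control. The affy package is named in the submitters' processing notes. How background was corrected and arrays were normalized and summarized is not given in the sources used here. A larger shift shared by most transcripts may have been removed by such normalization, and the source of the shift that is left was not tested.

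Of 35556 probe sets, 21789 had 1 gene symbol in the platform annotation, 1621 had several and 12146 had none. For the 999 genes with several probe sets of the first kind, that of highest mean was used, which left 19938 genes. Values were used as deposited, without a filter. Relapsed and control tumours were compared with limma 3.58.1 in R 4.3.3 (lmFit and eBayes, 4 residual and 1.53 prior degrees of freedom), two-sided, with Benjamini-Hochberg adjustment over all genes. Within-array ratios were compared by exact permutation. The fit was tested on simulated data. Precision is limited by the number of arrays. The labels do not say whether tumours came from separate animals, so p-values measure the spread between these samples. Replicate numbers 1 and 2 occur in both groups without any stated pairing.

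The members and lists were chosen with earlier results of these data known. Per pathway list, up to 4 called genes of largest difference were named, or the 2 of smallest p where none was called, and per member the 3 genes nearest in pattern.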

Additional observations from a re-analysis of the deposited data

How the results depend on the processing

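The 14 alternatives were 2 other ways to combine probe sets, all probe sets, the dimmer 50% left out, 2 scalings, another variance model, the replicate block and each array left out. Each member has 1 probe set, so combining or testing probe sets otherwise, the dim filter and the variance model left member differences unchanged. Those settings could move only the SE, the interval and the p-values. Under the 14 alternatives Egfr, Erbb2, Erbb3, Erbb4, Lrig1, Lrig2 and Lrig3 kept their directions wherever they were tested. Errfi1 turned to 0.13 without relapsed 1, in a range of -0.24 to 0.13. The cause was not tested. Erbb3 and Erbb4 were among the dimmer genes and have no value there. Lrig1 lost its call with each array left out (differences of -0.97 to -0.70) and with the replicate block (-0.95, adjusted p = 0.393), fits with fewer degrees of freedom. Erbb2 passed with the dimmer genes left out (-0.66), quantile normalization (-0.67) and median centring (-0.73), which each made 2 members called. Erbb3, in a range of 0.42 to 0.95, passed at 0.95 without relapsed 2. With 1 array left out, 264 to 975 genes, 0 to 1 members and 0 to 7 pathway genes were called by limma. In detail, without relapsed 1, 2 or 3 it called 975, 424 or 297 genes and 7, 0 or 0 pathway genes, and without control 1, 2 or 4 it called 415, 696 or 264 genes and 2, 3 or 0 pathway genes. Those of these fits with 1 array left out that called no member had 3 at an unadjusted p under 0.05, and those that called no pathway gene had 16 to 18. Pathway calls were 4 (2 higher and 2 lower) with all probe sets and 5 (2 higher and 3 lower) with the other variance model.

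With the replicate block, limma called 0 genes, 0 members and 0 pathway genes, with 2199, 2 and 9 at an unadjusted p under 0.05. The deviations of same-numbered arrays from their group means correlated at -0.34 for number 1 and -0.25 for number 2, so the numbers were not taken as a pairing. The within-array ratio of Erbb2 to Erbb4 ran from -0.51 to 0.00 and that of Lrig2 to Lrig3 from -0.38 to 0.08 with 1 array left out, and the other 6 kept their direction.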

Other observations

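Genes beside the 8 members on their chromosomes were read by order in the RefSeq table of GRCm38.p6, a choice made after the members' values were seen. Of the nearest 2 protein-coding genes on each side of each member, 30 were measured, and 1 rose and 2 fell in limma, against 9.16% of all genes called. Around Erbb2 no neighbour was called. Differences were -0.01 ± 0.05 for Pnmt, -0.39 ± 0.15 for Pgap3, -0.02 ± 0.09 for Mien1 and 0.00 ± 0.05 for Grb7. Grb7 is an adaptor that is often amplified together with ERBB2 in human tumours. Its levels of 5.70 to 5.71 lay near 5.66, the middle value of the probe sets without a listed gene. They may hold little signal of the transcript. Around Lrig1, the membrane scaffold gene Magi1 fell by 1.05 ± 0.11 with an adjusted p of 0.0132 in limma, and Slc25a26, Kbtbd8 and Suclg2 differed by -0.15 ± 0.12, 0.11 ± 0.06 and 0.00 ± 0.12. Around Lrig3, Slc16a7, a monocarboxylate transporter, was 1.25 ± 0.28 higher with an adjusted p of 0.0511, and Tafa2 was 0.45 ± 0.13 lower with an adjusted p of 0.0957. The other calls were Plek, a leukocyte and platelet gene near Egfr, which rose by 1.40 ± 0.11, and Lancl1 near Erbb4, which fell by 0.63 ± 0.11.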
